A study of Mus musculus with 11 samples.

Results

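The immediate early genes described here were Fos, Fosb, Egr1, Jun, Junb, Zfp36, Ier2, Atf3, Dusp1 and Nr4a1, 10 of the 24421 genes in a table of raw read counts from the main olfactory epithelium (MOE) of newborn mice. They were found by their symbols, and all 10 passed the filter on low counts, as did 16574 genes in all. The members were selected on the values of homozygous replicates 1 and 2, so the levels of that pair of libraries are a description and carry no test. RNA-seq libraries came from 3 groups of mice, wild type (WT, n = 3), heterozygous for a deletion of the TAAR gene cluster (TAAR cluster +/-, het, n = 4) and homozygous for it (TAAR cluster -/-, homo, n = 4), and the design asks how the MOE transcriptome depends on the number of intact copies of that cluster. All groups carried the same labels for strain, C57BL/6, and age, P1-P2, which is postnatal day 1 to 2, and none received a treatment in the labels. The reporting part of the study gives an older age and a mixed background for the mice of this line. The MOE is the sheet of tissue in the nose that holds the olfactory sensory neurons (OSNs) with their basal stem cells, sustentacular (supporting) cells, vessels and connective tissue.

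Immediate early genes are transcribed within minutes of a stimulus, without any need for new protein, because the transcription factors that switch them on are already in the cell. Growth factors, calcium entry in active neurons, cyclic AMP and tissue injury act through kinases on serum response factor at CArG boxes and on CREB at cyclic AMP response elements (CRE), and the messenger RNAs are short-lived. In olfactory tissue several of them are used as markers of recent neuronal activity, and the same genes are known to rise when a tissue is cut or dissociated.

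The 250 bases upstream of the gene start are shown for the 4 members with the largest number of motif matches or with a rare match (Fosb, Zfp36, Dusp1 and Nr4a1), for Fos as the prototype of the class, and for Jun, the member that did not follow the others in homozygous replicate 1. The sequences are from RefSeq on GRCm38.p6, on the gene's own strand, and capitals mark the motif matches. Fos is at chr12:85473640-85473889 (plus strand), Fosb at chr7:19310046-19310295 (minus strand), Zfp36 at chr7:28379229-28379478 (minus strand), Dusp1 at chr17:26508473-26508722 (minus strand), Nr4a1 at chr15:101266596-101266845 (plus strand) and Jun at chr4:95052223-95052472 (minus strand).
Fos: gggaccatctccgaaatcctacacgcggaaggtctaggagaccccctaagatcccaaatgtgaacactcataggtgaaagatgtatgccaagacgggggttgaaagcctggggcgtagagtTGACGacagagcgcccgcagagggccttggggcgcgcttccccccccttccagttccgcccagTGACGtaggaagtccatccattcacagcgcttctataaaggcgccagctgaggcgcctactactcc
Fosb: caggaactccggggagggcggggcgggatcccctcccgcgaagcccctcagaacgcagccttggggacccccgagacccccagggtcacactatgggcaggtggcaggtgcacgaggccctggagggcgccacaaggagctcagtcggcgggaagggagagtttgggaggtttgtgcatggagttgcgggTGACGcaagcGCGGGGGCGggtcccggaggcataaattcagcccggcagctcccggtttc
Zfp36: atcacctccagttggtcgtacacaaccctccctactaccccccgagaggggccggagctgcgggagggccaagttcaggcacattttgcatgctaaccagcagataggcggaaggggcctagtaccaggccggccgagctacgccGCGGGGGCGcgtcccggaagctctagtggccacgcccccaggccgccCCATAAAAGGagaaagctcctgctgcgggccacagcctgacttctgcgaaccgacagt
Dusp1: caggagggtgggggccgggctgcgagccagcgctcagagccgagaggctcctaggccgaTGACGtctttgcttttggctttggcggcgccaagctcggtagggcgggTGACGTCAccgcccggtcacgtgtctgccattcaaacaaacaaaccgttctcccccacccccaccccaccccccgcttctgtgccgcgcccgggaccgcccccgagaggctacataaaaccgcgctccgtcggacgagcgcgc
Nr4a1: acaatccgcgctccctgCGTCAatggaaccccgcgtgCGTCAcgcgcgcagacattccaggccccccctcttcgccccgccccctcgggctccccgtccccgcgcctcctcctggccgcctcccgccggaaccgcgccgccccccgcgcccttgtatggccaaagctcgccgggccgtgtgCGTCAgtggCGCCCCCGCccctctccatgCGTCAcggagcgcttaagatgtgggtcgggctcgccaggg
Jun: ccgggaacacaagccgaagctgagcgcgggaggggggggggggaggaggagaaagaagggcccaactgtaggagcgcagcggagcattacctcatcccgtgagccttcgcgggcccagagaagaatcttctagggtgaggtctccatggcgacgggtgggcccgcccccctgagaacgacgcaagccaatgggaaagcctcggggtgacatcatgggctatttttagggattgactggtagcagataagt

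The motifs searched, on both strands, were the CArG box, the CRE (TGACGTCA), its core (TGACG, which lies within the CRE), the AP-1 site (TGANTCA) and the EGR site (GCGNGGGCG). Of the 10 members, 8 had an upstream sequence in the table, all but Egr1 and Ier2. The CRE core was present in 6 of these 8 (Fos, Fosb, Junb, Atf3, Dusp1 and Nr4a1), against 27.6% of 12438 tested genes with a window of the same length. The full CRE was found in Dusp1 alone, 143 to 136 bases before the start, and in 2.81% of tested genes. Of these 8, Zfp36 was the member with a CArG box in the window, 58 to 49 bases before the start, a motif that 1.38% of tested genes held. EGR sites were found in Fosb, Zfp36 and Nr4a1, against 9.50% of tested genes. The AP-1 site had 0 matches in the 8 members, against 5.98% of tested genes, and Jun held none of the 5 motifs in this window. A match describes letters in the reference window and is not evidence of binding in these mice. Bases further upstream were not searched, so a missing match does not mean that a gene lacks the motif.

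**Figure D1:**
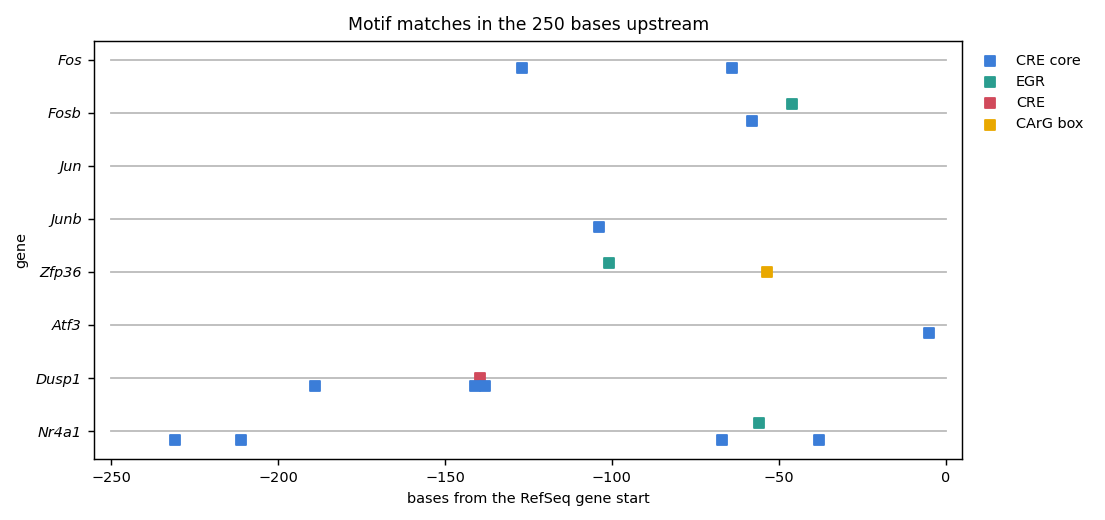
Positions of the motif matches in the 250 bases upstream of the RefSeq start of 8 immediate early genes (x axis, bases from the start; a grey line for each gene; coloured squares, motif matches on either strand). Nr4a1 holds 4 CRE core matches and Dusp1 holds 3, of which 2 lie within its full CRE, while the Jun line is empty.

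Libraries held between 9239866 and 14632525 counts assigned to genes. The summed counts of the Taar genes were 1, 1, 2 and 3 in the homozygous libraries, 31 to 96 in the heterozygous and 87 to 119 in the WT libraries. The homozygous libraries thus followed their labels, while the heterozygous and WT counts overlapped and do not check those labels. The 12 mature OSN markers summed to 2083 CPM (a gene's read count relative to the size of its library, scaled with TMM normalisation factors) in homozygous replicate 2 and to between 2143 and 3655 CPM in the other 10 libraries. Along the first principal component, 41.6% of the variance, the libraries fell into 2 sets that crossed the genotypes. Both high homozygous libraries, replicates 1 and 2, fell in set 1 with the WT libraries 1 and 2 and the last 2 heterozygous libraries (replicates 3 and 4), and the other 5 libraries formed set 2. Homozygous replicate 2 stood apart, with 25.8% of its counts on the ribosomal RNA gene Rn45s against 0.0848% to 0.786% in the other 10 libraries, and with 9821 CPM of Lars2 against 151 to 585 CPM. The noncoding RNAs Rmrp, Rpph1 and Malat1 were at 116, 145 and 2032 CPM there, and at most at 3.14, 5.21 and 1061 CPM in the other 10 libraries. Homozygous replicate 1 had 0.126% Rn45s, within the range of the other libraries. What part the ribosomal RNA share and the library set have in the levels below was not tested beyond the values given. In whole tissue, fewer cells of a type and less RNA per cell cannot be told apart. Xist, the noncoding RNA that coats the inactive X chromosome of female cells, was between 1327 and 4297 CPM in all 3 WT libraries, heterozygous replicate 3 and homozygous replicate 1, and between 0.880 and 1.70 CPM in the other 6 libraries. Homozygous replicates 1 and 2 thus differed in Xist, and as every library low in Xist was heterozygous or homozygous, sex and genotype cannot be told apart in full in the comparisons with WT. The labels give no sex and do not say whether the mice shared litters or preparation days, so p-values measure only the spread between these samples.

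Homozygous replicate 2 had the highest level of the 11 libraries for all 10 members, where it was the highest for 7.78% of all tested genes. Homozygous replicate 1 was above the other 9 libraries for 9 members, against 8.19% of all tested genes. The pair held the 2 highest levels for those 9 members, all but Jun, against 2.95% of all tested genes. Because these values chose the members, nothing is read from the counts. Summed over the 10 members, the level was 801 CPM in homozygous replicate 1 and 2716 CPM in homozygous replicate 2, and 379 to 579 CPM in the other 9 libraries.

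**Figure D2:**
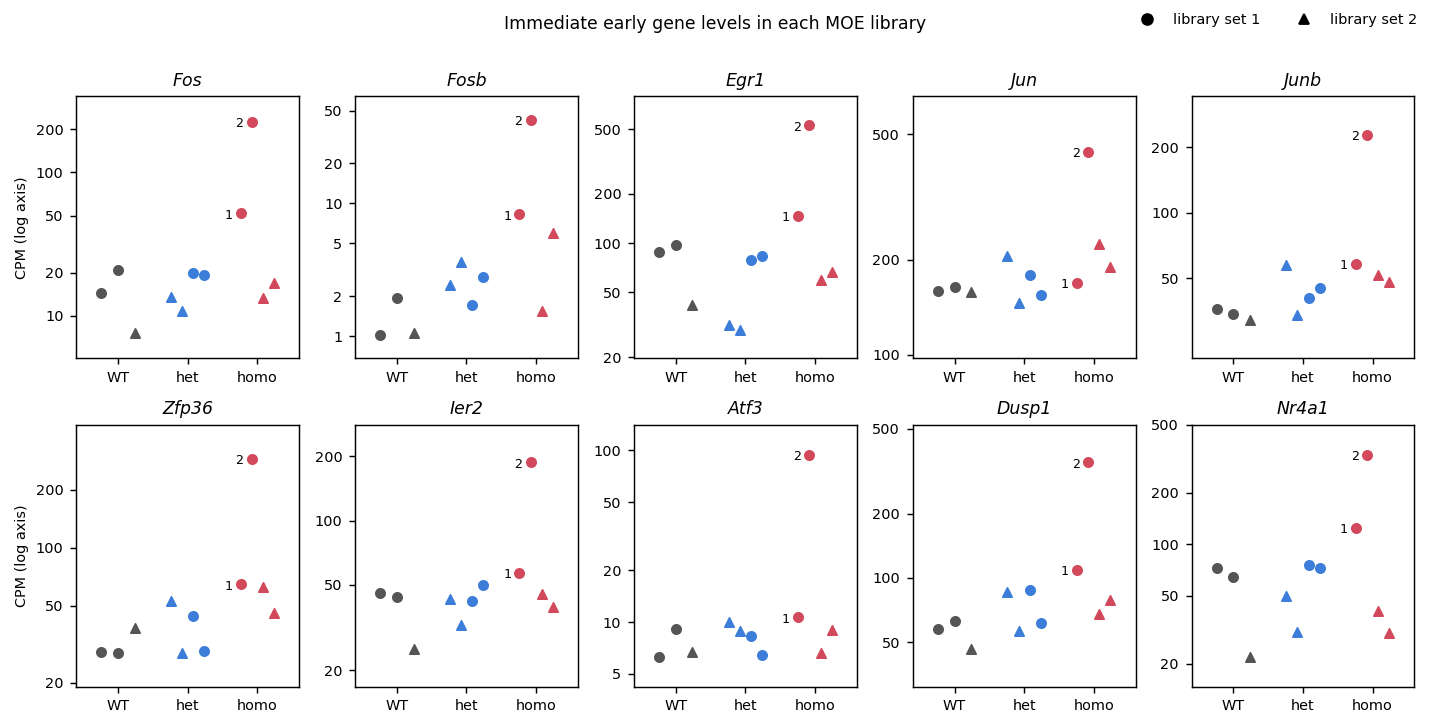
CPM (log axis) of each immediate early gene in every library of WT, heterozygous (het) and homozygous (homo) MOE. Each point is 1 library, circles are library set 1, triangles are library set 2, and the numbers 1 and 2 mark homozygous replicates 1 and 2, which sit above the other 9 libraries in each panel except for replicate 1 in Jun.

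Among the members that encode AP-1 subunits, Fos and Fosb (partners of the JUN proteins) showed the widest spread. Fos (chr12:85473890-85477273) was at 14.5, 20.8 and 7.59 CPM in WT replicates 1 to 3, at 13.6, 10.7, 20.0 and 19.2 CPM in heterozygous replicates 1 to 4, and at 52.1, 226, 13.4 and 16.9 CPM in homozygous replicates 1 to 4. Homozygous replicates 1 and 2 were therefore 3.65 and 15.8 times the WT mean, while replicates 3 and 4 lay inside the WT range. Fosb (chr7:19302696-19310051) was the member with the fewest reads, 11 to 391 per library. Its level was 1.02, 1.92 and 1.05 CPM in the WT libraries, 2.45, 3.61, 1.71 and 2.78 CPM in the heterozygous libraries and 8.24, 42.6, 1.54 and 6.02 CPM in the homozygous libraries. Homozygous replicate 2 was 32.0 times the WT mean, the largest ratio among the members, and homozygous replicate 4 was also above every WT and heterozygous library.

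Jun and Junb encode the basic leucine zipper partners of the FOS proteins. Jun (chr4:95049034-95052222) was at 159, 163 and 158 CPM in the WT libraries, at 206, 146, 179 and 155 CPM in the heterozygous libraries and at 169, 439, 224 and 190 CPM in the homozygous libraries. It had the smallest WT spread of the members, a coefficient of variation of 1.74%, and homozygous replicate 1 ranked 6 of the 11 libraries. Homozygous replicate 2 stood at 2.74 times the WT mean, the smallest ratio among the members. Junb (chr8:84974484-84978718) was at 36.1, 34.4 and 32.2 CPM in the WT libraries, at 57.7, 34.1, 40.8 and 45.1 CPM in the heterozygous libraries and at 58.3, 228, 51.7 and 47.9 CPM in the homozygous libraries. Every homozygous library was above every WT library for Junb, and likewise for Jun, Zfp36 and Dusp1 (4 members, against 2.51% of all tested genes). Heterozygous replicate 1 was almost level with homozygous replicate 1 for Junb.

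Atf3, a stress-induced member of the ATF/CREB family that also pairs with JUN, was flat outside homozygous replicate 2. Atf3 (chr1:191170296-191218039) was at 6.30, 9.06 and 6.70 CPM in the WT libraries, at 10.1, 8.86, 8.34 and 6.42 CPM in the heterozygous libraries and at 10.7, 93.9, 6.60 and 9.04 CPM in the homozygous libraries. Homozygous replicate 2 was 9.33 times the highest of the other 9 libraries, and homozygous replicate 1 was 1.06 times that library.

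Egr1, a zinc finger transcription factor, and Nr4a1, an orphan nuclear receptor also called Nur77, had, after Fosb, the widest range among the 9 libraries outside the pair. Egr1 was at 87.7, 97.8 and 41.9 CPM in the WT libraries, at 31.5, 29.5, 78.8 and 83.1 CPM in the heterozygous libraries and at 147, 529, 59.8 and 66.8 CPM in the homozygous libraries. Nr4a1 (chr15:101254269-101274795) was at 72.7, 64.1 and 22.0 CPM in the WT libraries, at 50.0, 30.5, 76.1 and 72.2 CPM in the heterozygous libraries and at 125, 334, 40.4 and 30.0 CPM in the homozygous libraries. For both genes homozygous replicates 3 and 4 fell between the WT libraries, and the WT and heterozygous libraries split by library set. Among these 7 libraries, all 4 of set 1 were above all 3 of set 2 for Egr1, Nr4a1 and Fos, 3 of the 10 members, against 15.8% of all tested genes. The opposite order was found for 0 members, against 20.8% of all tested genes.

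Zfp36 and Dusp1 encode proteins that end the response: ZFP36 (tristetraprolin) binds AU-rich elements and speeds the decay of messenger RNAs, and DUSP1 is a phosphatase that switches off MAP kinases. Zfp36 (chr7:28376784-28380253) was at 28.9, 28.7 and 38.3 CPM in the WT libraries, at 52.8, 28.6, 44.4 and 29.1 CPM in the heterozygous libraries and at 64.6, 289, 62.9 and 45.8 CPM in the homozygous libraries. Dusp1 (chr17:26505590-26562128) was at 57.7, 63.0 and 46.3 CPM in the WT libraries, at 85.7, 56.6, 87.8 and 61.4 CPM in the heterozygous libraries and at 109, 348, 67.8 and 78.4 CPM in the homozygous libraries. The homozygous and WT libraries did not overlap for either gene, and the heterozygous libraries overlapped both groups. Homozygous replicate 2 was 9.03 times the WT mean for Zfp36 and 6.24 times for Dusp1, and homozygous replicate 1 was 2.02 and 1.96 times.

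Ier2, a small nuclear protein whose gene is induced with Fos by serum, was at 46.1, 44.2 and 25.1 CPM in the WT libraries, at 43.0, 32.4, 42.0 and 50.2 CPM in the heterozygous libraries and at 56.9, 187, 45.4 and 39.5 CPM in the homozygous libraries (chr8:84661331-84662852). Homozygous replicates 1 and 2 were 1.48 and 4.86 times the WT mean, and replicates 3 and 4 lay within the range of the WT libraries. The annotation places other genes on the opposite strand over part of the span of Jun (Junos), Junb (Prdx2), Zfp36 (Gm44710), Atf3 (Gm24748) and Dusp1 (Ergic1 and Gm8225). Over Dusp1 it also places AC122252.4 and AC122252.1 on the same strand. Gene spans were compared, not exons, and the strand setting of the counting is not given in the sources used here. Whether reads from these genes entered the members' counts therefore cannot be told.

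**Figure D3:**
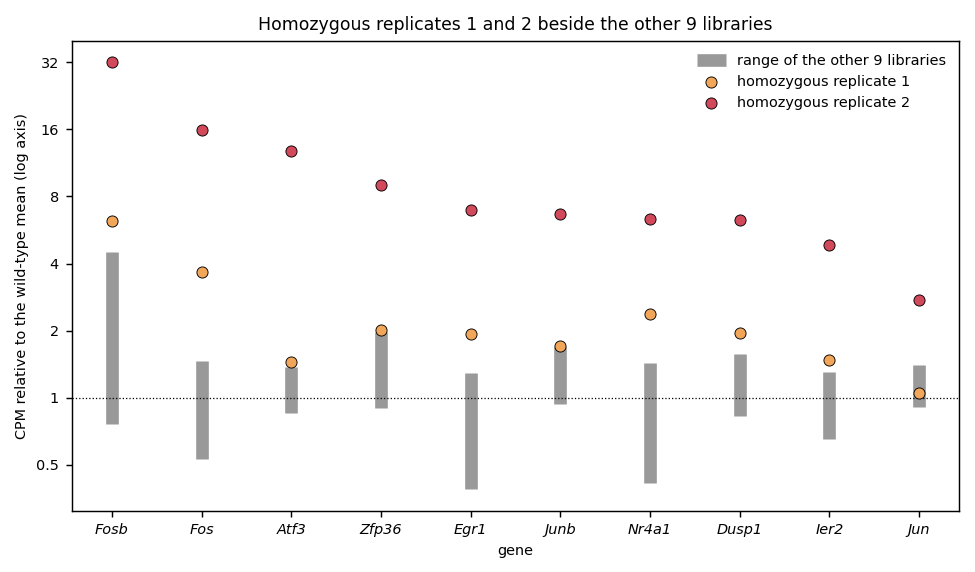
CPM relative to the WT mean (log axis) for each immediate early gene, ordered by homozygous replicate 2. Points are homozygous replicates 1 and 2 and grey bars run from the lowest to the highest of the other 9 libraries. Replicate 2 runs from 32.0 times the WT mean for Fosb to 2.74 times for Jun, and replicate 1 from 6.19 times to 1.05 times for the same genes.

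Set against exon length, the order of the WT levels was led by Jun at 50.3 CPM per kb of exon. Ier2 followed at 25.3, then Egr1 at 16.9, Dusp1 at 16.8, Nr4a1 at 15.1 and Junb at 14.9 CPM per kb. Neighbours among these 5 overlapped in their WT libraries, so their order is not resolved. Zfp36 stood at 9.22, Fos at 6.07, Atf3 at 3.41 and Fosb at 0.213 CPM per kb. The WT libraries of Zfp36 and Fos overlapped, as did those of Fos and Atf3, while Jun lay above Ier2, Zfp36 below Junb and Fosb below Atf3 in every WT library. The coefficient of variation among the WT libraries ran from 1.74% for Jun to 51.3% for Nr4a1, and among the homozygous libraries from 48.7% for Jun to 142% for Atf3.

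Heterozygous and WT libraries were compared with edgeR's quasi-likelihood test. The fit held all 11 libraries, so its standard errors also take in the spread of homozygous replicates 1 and 2, the libraries that chose the members. None of the 10 members passed an adjusted p of 0.05, against 0.0% of all tested genes, and 0 members had an unadjusted p under 0.05, against 2.24% of all tested genes. Over all genes that is 372 genes, and the count was 229 without WT replicate 1 and 614 without WT replicate 3, with 0 members each time. DESeq2 also called 0 members after adjustment. The members' log2 fold changes had a median of 0.17, beside a median of 0.00 over all tested genes, and 9 of 10 were positive. Without WT replicate 3 the median was 0.11 and 6 of 10 were positive, without WT replicate 2 it was 0.32, and with library set as a covariate it was 0.47. The log2 fold changes ran from -0.45 ± 0.69 (SE) for Egr1 to 0.98 ± 0.90 for Fosb. Junb (0.38 ± 0.48), Dusp1 (0.39 ± 0.48) and Zfp36 (0.28 ± 0.55) followed Fosb in size, an order that rested in part on heterozygous replicate 1, without which Junb was at 0.22 and Zfp36 at 0.09. Egr1 was at -0.74 without WT replicate 3 and at -0.22 without WT replicate 2. The other 5 members lay between 0.10 for Jun and 0.20 for Atf3. Without WT replicate 3 the values turned to -0.16 for Fos, -0.11 for Ier2 and -0.26 for Nr4a1. In a fit without homozygous replicates 1 and 2, added after seeing the data, the standard errors were smaller, at 0.37 ± 0.18 for Junb, 0.38 ± 0.19 for Dusp1 and 0.97 ± 0.50 for Fosb. There 0 members passed the adjusted threshold and 0 had an unadjusted p under 0.05, against 2.33% of all tested genes.

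Homozygous against WT libraries gave positive log2 fold changes for all 10 members, with a median of 1.46. The largest were 3.43 ± 0.93 (SE) for Fosb, 2.43 ± 0.86 for Fos and 2.02 ± 0.81 for Atf3, and the smallest was 0.67 ± 0.29 for Jun. With edgeR 0 members passed an adjusted p of 0.05 (0.0% of all tested genes) and 8 had an unadjusted p under 0.05 (3.02% of all tested genes). DESeq2 called 1 member after adjustment, Fosb, and gave no p for Atf3. Against the heterozygous libraries the median was 1.39, 0 members passed the adjusted threshold with edgeR (0.0%) or DESeq2, and 9 had an unadjusted p under 0.05 (0.561%). Both contrasts contain the libraries that chose the members, and they share the homozygous libraries with each other, so the counts describe these libraries and are not read further. Without homozygous replicate 2 the medians dropped to 0.45 against WT and 0.23 against heterozygous libraries, and 4 members (1.92% of all tested genes) and 1 member (0.321%) then had an unadjusted p under 0.05. The count against WT was also 4 without WT replicate 3 (714 of 16788 tested genes). It was 5 without WT replicate 1 (352 of 16818) or 2 (508 of 16830), and 6 with the replicate number as a block (286 of 16574). In WT and homozygous libraries only, the block called 39 genes after adjustment and 0 members. Against heterozygous libraries the count was 4 without heterozygous replicate 2 (73 of 16467 tested genes), 5 without replicate 3 (133 of 16512) and 4 without replicate 4 (139 of 16510). With the replicate number as a block it was 2 (43 of 16574), with a median of 0.93.

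**Figure D4:**
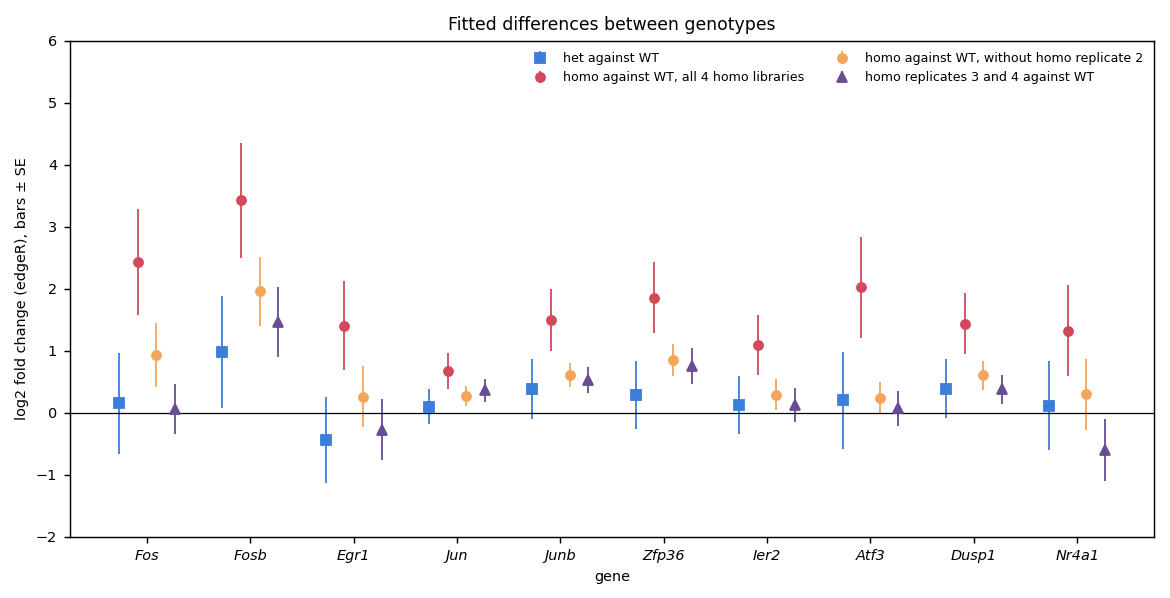
Log2 fold changes (y axis, edgeR, bars ± SE) of the 10 immediate early genes (x axis) for heterozygous against WT, homozygous against WT with all 4 homozygous libraries, the same without homozygous replicate 2, and homozygous replicates 3 and 4 against WT. The points with all 4 homozygous libraries are the highest for every gene, and those without replicate 2 have a median of 0.45.

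Homozygous replicates 3 and 4, which the selection did not single out, were compared with the WT libraries in a fit of 9 libraries. Zfp36 had a log2 fold change of 0.75 ± 0.29 (SE), Junb of 0.53 ± 0.21 and Fosb of 1.47 ± 0.57. Their unadjusted p values were 0.0247, 0.0304 and 0.0261, and the adjusted p from edgeR's quasi-likelihood test with Benjamini-Hochberg correction was 0.482 for each, from 0.238 to 1.0 over the alternatives. In all, 0 members passed the adjusted threshold (0.0% of all tested genes, and 0 members with DESeq2), and 3 had an unadjusted p under 0.05, against 9.92% of all tested genes. That share of all tested genes was 1.04% without homozygous replicate 4, with 1 member, and 20.5% without WT replicate 3, with 2 members. Without homozygous replicate 3 or 4 the homozygous arm is a single library, which the fit assumes to vary like the other groups. The Fosb difference rested on replicate 4, since without it the log2 fold change was 0.19. The count of members was 1 with the replicate number as a block (750 of 16789 tested genes). It was also 1 without WT replicate 1 (852 of 16722) or WT replicate 2 (960 of 16725). Replicates 3 and 4 were both above every WT library for Jun, Junb, Zfp36 and Dusp1, 4 members, against 16.3% of all tested genes. Egr1 (-0.28 ± 0.49) and Nr4a1 (-0.60 ± 0.49) were negative. With each library left out in turn, Egr1 ran from -0.57 to -0.04 and Nr4a1 from -0.97 to -0.31. The members' median log2 fold change was 0.24. The median was 0.13 without WT replicate 3, 0.41 without WT replicate 2 and 0.53 with library set as a covariate.

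These homozygous libraries were both in library set 2, whereas WT replicates 1 and 2 were in set 1. With library set as a covariate, Egr1 turned to 0.69 and Nr4a1 to 0.34. In that fit 4 members had an unadjusted p under 0.05, and so did 1360 of 16789 tested genes in all. Within set 2 the mean of homozygous replicates 3 and 4 was above the single WT library for 10 of 10 members (54.2% of all tested genes), with a median ratio of 1.56, and above the mean of the 2 heterozygous libraries for 8 of 10 (51.5%), all but Atf3 and Nr4a1, with a median ratio of 1.15. That single WT library, replicate 3, was the lowest WT library for 7 of the 10 members. Within set 1 the mean of homozygous replicates 1 and 2 was above the WT mean for 10 of 10 members (50.7% of all tested genes), from 1.88 times for Jun to 17.3 times for Fosb (n = 2 in each group). That pair of homozygous libraries chose the members, so nothing is read from this count. Against heterozygous libraries in the 9-library fit, homozygous replicates 3 and 4 had a median log2 fold change of 0.08. The median turned to -0.06 without heterozygous replicate 2, and was 0.14 without heterozygous replicate 4 and 0.26 with library set. With edgeR 0 members passed the adjusted threshold (0.0%), 0 had an unadjusted p under 0.05 (5.03% of all tested genes), and DESeq2 called 0. The values ran from -0.71 ± 0.47 for Nr4a1 to 0.50 ± 0.52 for Fosb.

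Across all 11 libraries the 45 pairs of members had a median Pearson r of 0.89 on log2 CPM, a description over libraries that include the pair by which the members were chosen. Over the 9 other libraries the median was 0.29, and 34 of 45 pairs were positive. Dusp1 followed the mean of the other members most closely in these 9 libraries, with r = 0.88, ahead of Fos (0.71), Ier2 (0.70) and Junb (0.70). Jun was at 0.56, Nr4a1 at 0.40 and Zfp36 at 0.33. Egr1 (0.18), Fosb (0.25) and Atf3 (0.25) followed it least. Egr1 went most closely with Fos (r = 0.73), Nr4a1 (0.65) and Ier2 (0.59), while Egr1 and Atf3 were at -0.36. All points share the scaling and the library sets.

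The tested genes outside the list whose pattern was most like the members' mean over 11 libraries were Tnfaip3 (r = 0.97), Nfkbia (0.97), Lif (0.96), Bptf (0.95), Btg2 (0.95), Tnf (0.94), Tmem158 (0.93), Arc (0.93), Ovol1 (0.93) and Zfp36l1 (0.92). Over the 9 libraries their r ranged from 0.27 for Arc to 0.77 for Zfp36l1. Tnfaip3 and Nfkbia are feedback inhibitors of NF-kappaB signalling, Btg2 is an antiproliferative early gene, and Arc is an immediate early gene of active neurons. Btg2 stood at 113 CPM in homozygous replicate 1 and 327 CPM in homozygous replicate 2, and between 34.2 and 77.4 CPM in the other 9 libraries. Arc was at 12.9 and 25.3 CPM in the pair and between 7.91 and 11.9 CPM elsewhere.

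Related genes were taken from lists chosen with earlier results of these data known. The summed level was above all other 9 libraries in both homozygous replicates 1 and 2 for the EGR and NR4A relatives (198 and 226 CPM, against 100 to 173 CPM), for the other immediate early genes (1709 and 2554 CPM, against 1053 to 1695 CPM), for the feedback inhibitors (931 and 1167 CPM, against 697 to 874 CPM) and for the inflammatory early genes (217 and 539 CPM, against 77.7 to 160 CPM). For AP-1 relatives, neuronal activity genes, upstream regulators such as the kinases and factors that switch the members on, heat shock genes, hypoxia genes, glucocorticoid genes and integrated stress response genes, the sums of both libraries lay within the range of the other 9. A sum is led by its most abundant genes. Taken singly, the genes highest in the pair were 5 of 10 in the neuronal activity list (Arc, Rgs2, Plk2, Sik1 and Crem), 3 of 6 EGR and NR4A relatives, 1 of 8 AP-1 relatives, 4 of 14 feedback inhibitors, 5 of 22 other immediate early genes and 5 of 9 inflammatory early genes, against 2.95% of all tested genes. In the other lists they were 0 of 21 upstream regulators, 1 of 12 heat shock genes, 0 of 12 hypoxia genes, 0 of 9 glucocorticoid genes and 1 of 9 integrated stress response genes. As the pair chose the members of the main list, these counts are a description.

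**Figure D5:**
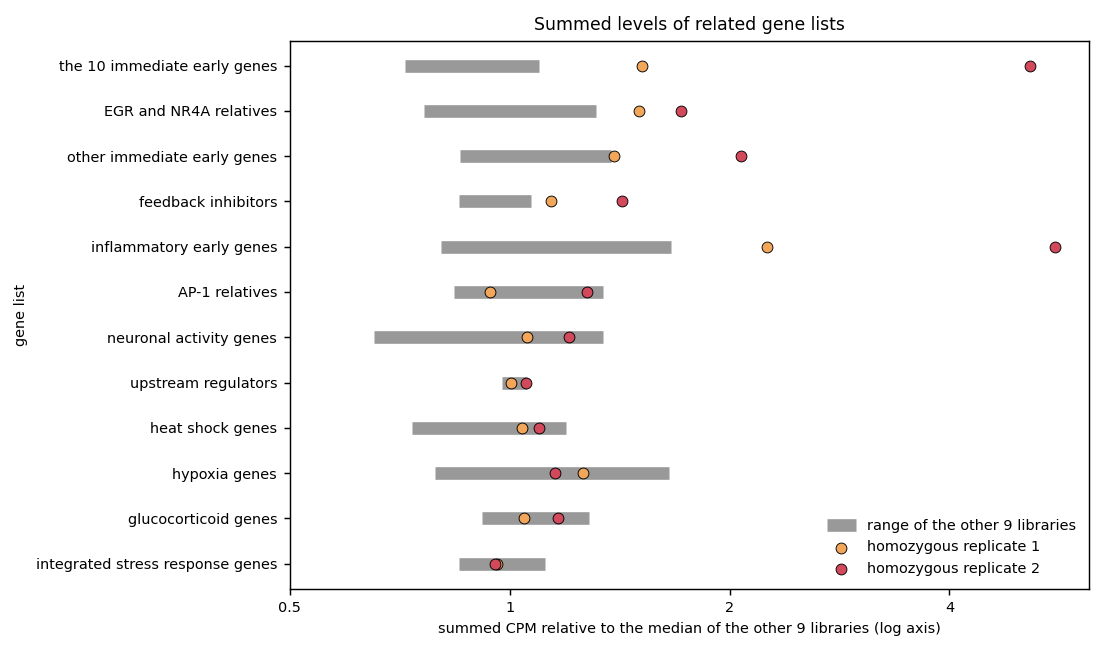
Summed CPM of related gene lists relative to the median of the other 9 libraries (x axis, log scale; y axis, gene list). Points are homozygous replicates 1 and 2 and grey bars span the other 9 libraries. Both points lie to the right of the bar for 5 lists, the 10 immediate early genes among them, and within the bar for the other 7.

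Several genes of those lists are named here after their values were seen. The NR4A receptors beside Nr4a1 were highest in the pair: Nr4a2 was at 30.5 and 46.6 CPM, against 15.1 to 26.4 CPM, and Nr4a3 at 44.3 and 45.5 CPM, against 4.36 to 43.9 CPM. Of the AP-1 relatives, Fosl2 was highest in the pair, at 53.1 and 67.7 CPM against 27.5 to 49.9 CPM. Dusp5, a MAP kinase phosphatase like Dusp1, was at 12.4 and 33.0 CPM, against 2.02 to 8.91 CPM. Ier3, an early gene of survival signalling, was at 55.4 and 152 CPM, against 14.5 to 46.4 CPM. Npas4, which neurons induce through calcium entry, was at 3.95 and 4.80 CPM, below the 9.31 CPM of heterozygous replicate 1 and inside the range of the other libraries.

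The inflammatory early genes held the steepest single values. Cxcl1, a chemokine that attracts neutrophils, was at 11.7 and 51.4 CPM in homozygous replicates 1 and 2 and between 0.00 and 1.02 CPM in the other 9 libraries. Il6, a cytokine, was at 3.87 and 4.14 CPM, against 0.00 to 1.02 CPM. Tnf was at 2.02 and 13.5 CPM, against 0.157 to 1.07 CPM. Nfkbia was at 72.7 and 226 CPM, against 41.4 to 69.6 CPM. Others of the list did not have this order. Il1b, another cytokine, was at 17.6 CPM in homozygous replicate 1 but at 2.94 CPM in homozygous replicate 2, against 0.749 to 4.62 CPM, and Ccl2, a chemokine for monocytes, was at 0.841 and 1.42 CPM, inside the 0.00 to 1.93 CPM of the other 9 libraries. In homozygous against WT libraries, 7 of 9 tested genes of this list and 9 of 22 other immediate early genes were higher with an unadjusted p under 0.05 (1.81% of all tested genes), and 0 in either list passed the adjusted threshold with edgeR. Without homozygous replicate 2 these counts were 2 of 7 and 4 of 22 (0.962% of all tested genes), as 2 of the 9 inflammatory genes then no longer passed the filter on low counts. Genes that pass it through the high pair had to differ, and the contrast holds the libraries that chose the members, so nothing is read from these counts. In homozygous replicates 3 and 4 against WT, 0 of the 7 tested inflammatory early genes had an unadjusted p under 0.05, with a median log2 fold change of -0.07, and 3 of 22 other immediate early genes were higher (3.37% of all tested genes) and 1 lower.

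Markers of other cell types moved with the pair in part. The 9 endothelial markers summed to 493 and 518 CPM in homozygous replicates 1 and 2. Group ranges were 334 to 466 CPM in WT, 314 to 451 CPM in heterozygous and 383 to 518 CPM in homozygous libraries. Of the 9 genes 4 (Pecam1, Cdh5, Tie1 and Esam) were highest in the pair, against 2.95% of all tested genes. The 8 macrophage markers summed to 300.5 and 282 CPM, with ranges of 208 to 226, 221 to 278 and 239 to 300.5 CPM in the 3 groups, and 0 of the 8 genes were highest in the pair. The 7 erythroid markers summed to 20.5 and 20.7 CPM, with ranges of 9.46 to 15.3, 8.70 to 15.4 and 9.98 to 20.7 CPM, and 4 of the 7 were listed at 0 in every library. The 6 respiratory ciliated cell markers summed to 729.9 and 799.5 CPM, and homozygous replicate 2 was above the 352 to 772 CPM of the other 9 libraries. The 6 sustentacular markers summed to 2673 and 2477 CPM, below the 2833 to 4366 CPM of the other 9 libraries, and the mature OSN sum was lowest in homozygous replicate 2. The 10 skeletal muscle markers, by contrast, ranged from 13.3 to 1948 CPM over the other 9 libraries, and the pair at 145 and 489 CPM lay inside that range. The sums of the immature OSN, globose basal cell, horizontal basal cell, fibroblast and neutrophil markers also lay inside it in both libraries of the pair. For the neutrophil markers they were 336 and 376 CPM, against 143 to 670 CPM in the other 9 libraries. The part of these cell types in the levels of the immediate early genes was not tested.

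Heterozygous against WT libraries gave 0 calls after adjustment in any of these lists. With an unadjusted p under 0.05, 3 of 22 other immediate early genes were higher, against 1.75% of all tested genes, and the median log2 fold change of that list was 0.30. Without homozygous replicates 1 and 2 in the fit the count was 5 of 22, against 1.76%. Markers of other cell types moved in the same comparison. All 10 skeletal muscle markers had an unadjusted p under 0.05 and were higher, with a median log2 fold change of 4.31. They summed to 13.3 to 69.3 CPM in WT libraries and to 28.8, 664, 25.8 and 1948 CPM in heterozygous replicates 1 to 4. Heterozygous replicates 1 and 3 thus lay inside the WT range. Of the 8 macrophage markers 3 were higher by the same threshold. The part of these cells in the values of this paragraph was not tested. Cebpd, a transcription factor of the acute phase response, had a log2 fold change of 1.04 ± 0.37 (SE), with an unadjusted p of 0.0159 and an adjusted p of 1.0 (edgeR's quasi-likelihood test, Benjamini-Hochberg). Maff, a small MAF partner of the AP-1 family, was the 1 of 8 tested AP-1 relatives under the same threshold, at 0.67 ± 0.27. Ptgs2, the inducible cyclooxygenase, was the 1 of 9 inflammatory early genes, at 2.06 ± 0.80. Its level was 5.28, 6.57 and 5.65 CPM in the WT libraries, 29.2, 16.0, 44.6 and 7.49 CPM in the heterozygous libraries and 46.2, 34.6, 4.33 and 6.54 CPM in the homozygous libraries. All 4 heterozygous libraries thus exceeded the WT libraries for Ptgs2, and homozygous replicates 3 and 4 did not. Of 12 hypoxia genes 3 were higher, with Ndrg1 at 1.05 ± 0.32, and in that list heterozygous replicate 1 had the highest sum of the 11 libraries, 1165 CPM.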

How the data were processed

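The libraries were made by the authors from total RNA of whole MOE with a directional kit after polyA selection. Per the labels, reads were trimmed with Trimmomatic 0.36, aligned to GRCm38 (mm10) with HISAT2 2.1.0 and counted per gene with featureCounts of Subread 1.6.2. The deposited table of raw read counts was used, and the authors' second table, the same counts divided by 1 size factor per library (DESeq2 1.20.0), was not used. No column lacked a sample.

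Levels are CPM with TMM factors. Genes were filtered with filterByExpr by genotype and tested with edgeR 4.0.16 (quasi-likelihood, two-sided, Benjamini-Hochberg over all tested genes, threshold 0.05), which was tested on simulated data. DESeq2 1.42.0 was an alternative, beside RLE size factors, no filter, each library left out, a replicate block, library set as a covariate and, added after seeing the data, leaving out Rn45s, a block in WT and homozygous libraries only, and heterozygous against WT fitted without homozygous replicates 1 and 2. Log2 CPM used a prior count of 2. The members and gene lists were chosen with earlier results of these data known. Named genes are the members, genes of other lists with an unadjusted p under 0.05 in a genotype contrast (up to 5 a list), the 10 genes most like the members' mean, and a few others that are marked as named after their values were seen. Library sets are the sign of the first principal component. Same-numbered WT and homozygous libraries deviated together (r = 0.33, 0.42 and 0.40 for replicates 1 to 3). WT and heterozygous libraries of the same number did not (r = -0.19, -0.38 and -0.23), nor did heterozygous and homozygous ones (-0.40 to -0.58). The main fits used no pairing, and the replicate number entered only as a block in the alternatives. Libraries of different numbers but the same set also deviated together (0.36 for WT replicate 1 with homozygous replicate 2, 0.47 for WT replicate 3 with homozygous replicate 4), so number and library set cannot be told apart. Gene spans and exon lengths are from GENCODE and upstream sequences from RefSeq. The RefSeq start is the GENCODE start for Fos and Jun only.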

Additional observations from a re-analysis of the deposited data

Results flagged for a closer look

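In 6 of the 20 groups of 4 libraries examined (10 members in heterozygous and homozygous libraries), 1 library lay far from the others, judged by the gap to its nearest neighbour as a share of the range of the group (Dixon's ratio at the 95% level). All 6 were homozygous replicate 2, a library by whose values the members were chosen. The share was 0.953 for Atf3 at 93.9 CPM, 0.942 for Junb at 228 CPM and 0.923 for Zfp36 at 289 CPM. It was 0.882 for Ier2 at 187 CPM, 0.852 for Dusp1 at 348 CPM and 0.837 for Fosb at 42.6 CPM. Chance marks about 1 in 20 such groups, but since that library chose the members, the number of groups marked is not read against it. In the heterozygous libraries no member passed the limit.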

How the results depend on the processing

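After adjustment 0 members were called in any of the 5 comparisons under any alternative, except 1 (Fosb) in homozygous against WT with DESeq2. With an unadjusted p under 0.05, leaving out each library gave 4 to 10 members in homozygous against WT, 1 to 10 against heterozygous, 1 to 3 for homozygous replicates 3 and 4 against WT and 0 to 1 against heterozygous, and medians of 0.45 to 1.70 and 0.23 to 1.69 in the first pair, lowest without homozygous replicate 2. The replicate block gave 2 members with an unadjusted p under 0.05 and a median of 0.93 in homozygous against heterozygous. It gave 1 such member for replicates 3 and 4 against WT. In heterozygous against WT its median was 0.53 (0.47 with library set, 0.11 to 0.32 without each library). In WT and homozygous libraries only, same-numbered libraries deviated together as the library sets did. There the block gave 10 members with an unadjusted p under 0.05, as had 1020 of 16163 tested genes. After adjustment it called 0 members and 39 genes, against 0 genes in the main fit. With library set as a covariate Egr1 and Nr4a1 turned to 0.69 and 0.34 in replicates 3 and 4 against WT. Against heterozygous libraries 1 member then had an unadjusted p under 0.05, as had 811 of 16789 tested genes. In heterozygous against WT, Jun ran from -0.0021 to 0.17, Fos from -0.16 to 0.53, Ier2 from -0.11 to 0.27 and Nr4a1 from -0.26 to 0.41, and Fosb in replicates 3 and 4 against heterozygous from -0.78 to 1.18 without each library. The cause of these changes was not tested. The other values given for single members kept their direction, though not all their size: in heterozygous against WT, Egr1 ran from -0.74 to -0.22, Fosb from 0.79 to 1.34, Junb from 0.22 to 0.48, Zfp36 from 0.09 to 0.43, Atf3 from 0.10 to 0.38 and Dusp1 from 0.27 to 0.49 without each library. Over all genes, unadjusted calls moved from 372, 500 and 93 in the 3 genotype contrasts to 754, 1132 and 227 with library set and to 239, 286 and 43 with the block, from 93 to 206 with no filter, and from 1666 and 844 for replicates 3 and 4 to 750 and 490 with the block, and without each library ran from 229 to 614, 317 to 721 and 53 to 180 in the genotype contrasts and from 180 to 3420 and 90 to 2111 for replicates 3 and 4. Without Rn45s or with RLE factors the members' medians moved by less than their spread between WT libraries. At 11 to 391 reads per library, Fosb is the member most limited by depth.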
